A study of Homo sapiens with 12 samples.

Results

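The clustered histone genes were followed in KYSE150, a human cell line that derives from an esophageal squamous cell carcinoma, with and without forms of the transcription factor TFAP2β. The members were all rows of the count table with a symbol that begins with HIST1H, HIST2H, HIST3H or HIST4H, which gave 71 of 24302 features. Of these, 33 had enough counts to be tested and 38 did not. The 12 libraries formed 4 groups of 3. The first carried GFP-TFAP2β (WT), the second GFP-TFAP2β-Mut_IDR3 (Mut_IDR3), the third GFP-TFAP2β-ΔIDR3 (dIDR3) and the fourth GFP alone (GFP). All 4 groups therefore carried GFP, and the 3 others carried it fused to TFAP2β. The series describes both mutants as deficient in liquid-liquid phase separation. IDR stands for intrinsically disordered region, a stretch of protein without a fixed fold. The change within IDR3 of Mut_IDR3, the way the constructs were delivered, the time after delivery and whether the cells were a pool or a clone are not given in the sources used here. Nothing in the labels ties replicates to separate cultures. The p-values therefore cover the spread among these libraries, and that spread may be technical.

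Histones H2A, H2B, H3 and H4 form the core of the nucleosome, around which DNA is wrapped, and H1 binds the linker DNA between nucleosomes. Most genes of the histone clusters are replication-dependent: they are transcribed in S phase, mostly have no introns, and give mRNAs that end in a conserved stem-loop in place of a poly(A) tail. Some clustered genes also give longer, polyadenylated mRNAs, which is known above all in cells that leave the cycle or differentiate. Libraries made for mRNA can hold different parts of these forms. Whether poly(A) RNA was selected here is not given in the sources used here.

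TFAP2B RNA, which the constructs encode, was at 285, 232 and 323 CPM (counts scaled by library size) in the WT libraries, 687, 732 and 687 CPM in Mut_IDR3, 739, 742 and 632 CPM in dIDR3, and 0, 0.279 and 0.0924 CPM in GFP. WT thus held less of it than either mutant, and the part of this difference in the results below was not tested. The libraries held 30.7 M to 43.5 M counts, and the clustered histone genes took 0.0444% to 0.0531% of them with WT, 0.0216% to 0.0222% with Mut_IDR3, 0.0192% to 0.0219% with dIDR3 and 0.02% to 0.0217% with GFP. All 8 markers of squamous epithelium were detected, with summed levels of 6651 to 7834 CPM with WT, 5266 to 5454 CPM with Mut_IDR3, 4447 to 4706 CPM with dIDR3 and 5198 to 5439 CPM with GFP. The markers did not move as a set: 5 of the 8 were higher and 3 lower with WT against GFP. Of all tested features, 27.7% were higher and 27.1% lower. KRT17 was at 2362 ± 215 CPM in WT and 775 ± 35.9 CPM in GFP, and KRT5 at 2902 ± 214 CPM in WT and 3416 ± 70.3 CPM in GFP (SD, n = 3 each). Markers of leukocytes summed to at most 0.485 CPM, those of endothelium to at most 1.8 CPM and those of fibroblasts to at most 6.56 CPM in any library. Fewer cells that express a gene and less RNA of it per cell cannot be told apart in bulk RNA.

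The members lie in 4 places of the genome (GRCh38, GENCODE release 29). The HIST1 cluster on chromosome 6, between 25726132 and 27893843, held 55 members, of which 24 were tested. HIST2 on chromosome 1, between 143905556 and 149887916, held 12 members with 8 tested. HIST3, also on chromosome 1, between 228424845 and 228460470, held 3 members and none was tested. HIST4 is 1 gene on chromosome 12, between 14767999 and 14771131, and it was tested. By type, 2 of 6 H1, 8 of 17 H2A, 9 of 18 H2B, 6 of 15 H3 and 8 of 15 H4 genes were tested. The 38 untested members included 10 without a count in any library, and the highest count of any of them in a library was 19. Together the untested members summed to 0.797 to 1.57 CPM with WT, 1.21 to 1.85 CPM with Mut_IDR3, 1.23 to 2.18 CPM with dIDR3 and 1.3 to 1.8 CPM with GFP, and these ranges overlapped.

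The stem-loops and promoters of some members are shown here. The letters are DNA, 5′ to 3′ on the gene's strand, and the capitals mark the match to the histone stem-loop consensus in the annotated transcripts. The first 4 genes were called higher with WT than with GFP, and the last 2 were not, although HIST1H2AG missed the threshold narrowly.
HIST1H2AC (chr6:26124664-26124693, plus strand): ccaaaGGCTCTTTTCAGAGCCcccctaccg
HIST1H2BD (chr6:26158582-26158611, plus strand): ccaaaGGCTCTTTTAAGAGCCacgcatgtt
HIST2H2BE (chr1:149886179-149886208, minus strand): ccaaaGGCTCTTTTCAGAGCCacccaccta
HIST1H3G (chr6:26270914-26270943, minus strand): aaaaaGGCTCTTTTAAGAGCCgcctacttt
HIST1H3H (chr6:27810511-27810540, plus strand): ccaaaGGCTCTTTTCAGAGCCacccacatg
HIST1H2AG (chr6:27133510-27133539, plus strand): ccaacGGCTCTTTTCAGGGCCacccacgtc
The stem-loops of these 6 genes are alike. HIST1H2AC, HIST2H2BE and HIST1H3H have the same capitals although HIST1H3H did not rise, HIST1H2BD and HIST1H3G share another form, and HIST1H2AG differs from both.

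The promoter windows below, from RefSeq (GRCh38.p14), hold 250 bases before and 50 bases after the annotated start. They are shown for HIST1H1C, HIST1H2AC and HIST2H2BE, which were higher with WT, and for HIST1H3H, which was not. Capitals mark matches, on either strand, to the TATA box (TATAAA), the CCAAT box (CCAAT), the octamer bound by POU2F1 (ATTTGCAT) and the AP-2 motif (GCCNNNGGC).
HIST1H1C (chr6:26056421-26056720, minus strand): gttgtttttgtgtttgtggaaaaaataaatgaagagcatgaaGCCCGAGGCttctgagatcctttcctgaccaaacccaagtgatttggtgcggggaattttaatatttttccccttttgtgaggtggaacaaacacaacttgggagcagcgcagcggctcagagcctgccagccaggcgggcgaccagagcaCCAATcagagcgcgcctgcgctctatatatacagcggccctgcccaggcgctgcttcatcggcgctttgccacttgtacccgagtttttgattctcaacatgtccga
HIST1H2AC (chr6:26123922-26124221, plus strand): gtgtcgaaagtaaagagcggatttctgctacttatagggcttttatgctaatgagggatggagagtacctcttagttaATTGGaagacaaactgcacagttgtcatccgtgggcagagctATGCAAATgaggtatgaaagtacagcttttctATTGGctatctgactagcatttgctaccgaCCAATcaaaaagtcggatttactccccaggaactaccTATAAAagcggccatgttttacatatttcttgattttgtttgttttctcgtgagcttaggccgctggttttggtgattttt
HIST2H2BE (chr1:149886633-149886932, minus strand): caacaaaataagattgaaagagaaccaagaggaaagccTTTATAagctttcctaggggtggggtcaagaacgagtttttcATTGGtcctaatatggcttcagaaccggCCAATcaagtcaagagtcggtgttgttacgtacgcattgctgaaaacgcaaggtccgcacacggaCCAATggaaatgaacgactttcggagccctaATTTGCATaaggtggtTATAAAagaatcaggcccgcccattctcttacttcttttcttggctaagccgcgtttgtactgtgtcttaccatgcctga
HIST1H3H (chr6:27809801-27810100, plus strand): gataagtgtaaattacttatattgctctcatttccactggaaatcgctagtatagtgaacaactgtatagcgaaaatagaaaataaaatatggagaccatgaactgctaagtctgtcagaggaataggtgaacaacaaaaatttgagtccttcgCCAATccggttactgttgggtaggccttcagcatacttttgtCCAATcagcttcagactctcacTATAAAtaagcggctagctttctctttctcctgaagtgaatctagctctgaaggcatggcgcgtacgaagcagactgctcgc
Only the first of these 4 windows holds the AP-2 motif, the kind of site that TFAP2β is known to bind, and it is the only one of the 4 without the TATA box as searched. Among all windows found, the motif lay in 1 of 14 members that rose and in 5 of 17 other tested members. HIST1H2AC and HIST2H2BE hold the octamer.

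With WT, the summed RNA of each histone type was higher than with GFP, and in each mutant the sums lay near those with GFP, as a description of the libraries with no test. H1 summed to 96.8, 95.9 and 92.8 CPM in the WT libraries, 33.5, 35.5 and 35.7 CPM in Mut_IDR3, 32.3, 26.9 and 29.5 CPM in dIDR3, and 27.7, 32.6 and 29.7 CPM in GFP. H2A summed to 137, 151 and 117 CPM in WT, 52.5, 46.7 and 50.7 CPM in Mut_IDR3, 48.1, 44.7 and 47.5 CPM in dIDR3, and 41.2, 44.3 and 49.5 CPM in GFP. No WT library overlapped any other group in these sums. H2B summed to 221, 237 and 201 CPM in WT, while it averaged 101 ± 4.52 CPM in Mut_IDR3, 95.1 ± 8.98 CPM in dIDR3 and 99.5 ± 2.46 CPM in GFP (SD, n = 3 each). H4 averaged 48.3 ± 4.09 CPM in WT, 24.0 ± 0.5 CPM in Mut_IDR3, 22.8 ± 1.8 CPM in dIDR3 and 20.9 ± 1.5 CPM in GFP (SD, n = 3 each). H3 was the lowest sum, at 13.0 ± 1.59 CPM in WT, 7.95 ± 1.03 CPM in Mut_IDR3, 8.48 ± 1.33 CPM in dIDR3 and 8.89 ± 1.36 CPM in GFP (SD, n = 3 each). Its 3 WT libraries also lay above all 9 others. The sums cover tested and untested members, and they rest on few genes: the 12 members with the highest mean level held 93.0% of the members' counts with WT, 89.6% with Mut_IDR3, 90.4% with dIDR3 and 88.7% with GFP.

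**Figure D1:**
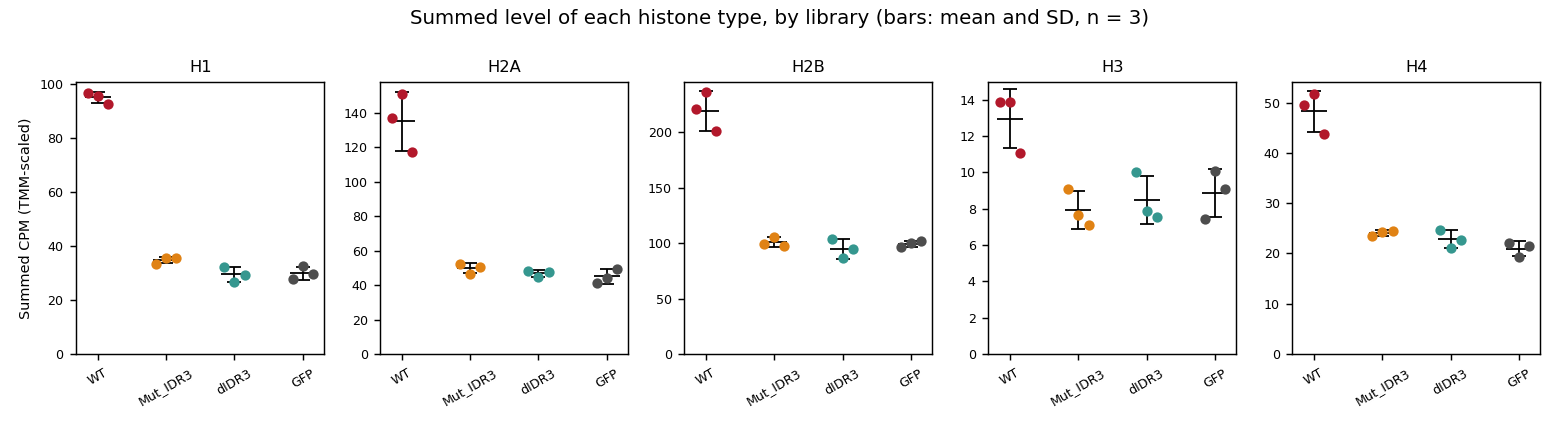
Summed CPM of the clustered histone genes of each type (vertical axes, each from 0) in every library of the 4 groups (horizontal axis), with points for libraries and bars for the mean and SD of 3. In all 5 panels the 3 WT points lie above the points of the other groups, with H1 at 92.8 CPM or more in WT and at 35.7 CPM or less elsewhere.

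Tested one by one, 15 of the 33 tested members rose with WT against GFP and 0 fell (edgeR quasi-likelihood test, Benjamini-Hochberg adjusted p under 0.05 over all 14792 tested features). That is 45.5% of them, beside 54.9% of all features that were called, 27.7% higher and 27.1% lower. The median log2 fold change of the tested members was 1.08, against -0.01 for all features. A further member had an unadjusted p under 0.05 in the same direction. The rises comprised 1 of 2 H1, 3 of 8 H2A, 6 of 9 H2B, 1 of 6 H3 and 4 of 8 H4 genes, with 10 in HIST1 and 5 in HIST2. A member had to reach enough counts in 1 group to be tested, so these counts describe the tested members and not the family.

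**Figure D2:**
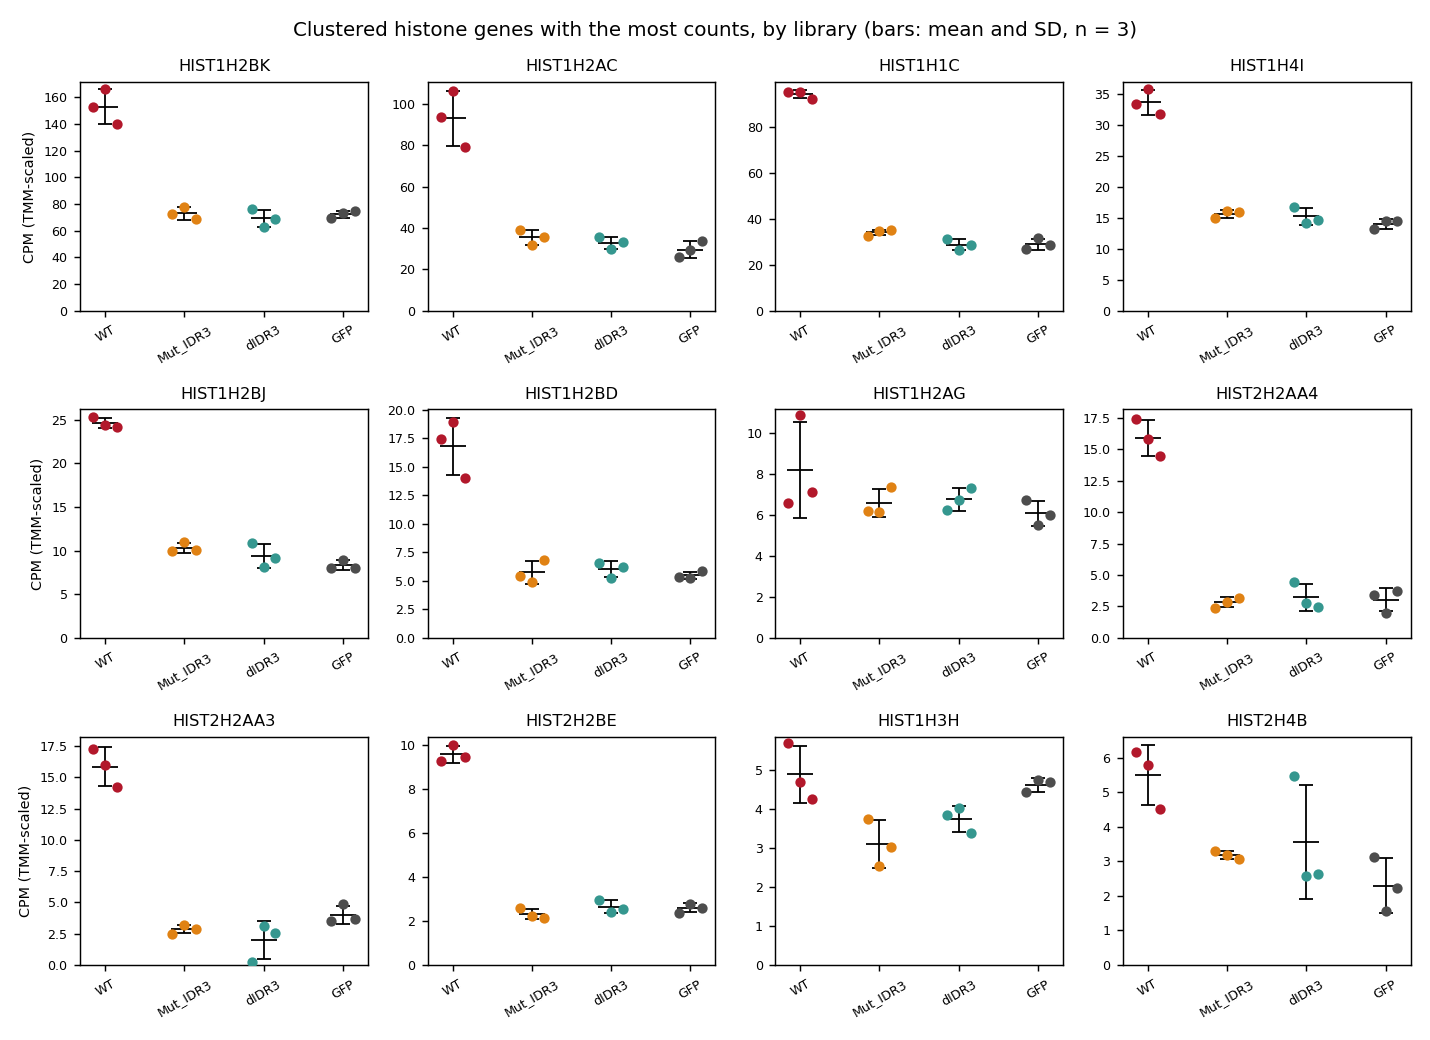
CPM (vertical axes, each from 0) of the 12 members with the highest mean level in every library of the 4 groups (horizontal axes), with points for libraries and bars for the mean and SD of 3. The WT points stand above all others in 9 panels, while WT libraries overlap other groups for HIST1H2AG, HIST1H3H and HIST2H4B. The share of all features whose WT libraries stand apart in this way was not counted.

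HIST1H1C (ENSG00000187837, chromosome 6, 26055787 to 26056428, minus strand), which encodes a linker histone, had the lowest adjusted p of the members. Its level was 95.5, 95.3 and 92.5 CPM in WT, 32.7, 34.6 and 35.1 CPM in Mut_IDR3, 31.2, 26.4 and 28.7 CPM in dIDR3, and 26.7, 31.6 and 28.7 CPM in GFP. The WT libraries stood clear of the rest and differed by little among themselves. The log2 fold change of WT against GFP was 1.70 (SE 0.08, adjusted p = 3.75e-10), or 3.26-fold. The other tested H1 gene, HIST1H1E, was at 1.24, 0.326 and 0.338 CPM in WT, 0.675, 0.782 and 0.487 CPM in Mut_IDR3, 0.823, 0.26 and 0.726 CPM in dIDR3, and 0.956, 0.962 and 0.924 CPM in GFP. Its WT libraries lay on both sides of the GFP libraries (log2 fold change -0.58, adjusted p = 0.40).

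Of the H2A genes, HIST1H2AC (ENSG00000180573, chromosome 6, 26124145 to 26139116, plus strand) took the most counts. It was at 93.6, 106 and 79.3 CPM in WT, 39.1, 31.7 and 35.7 CPM in Mut_IDR3, 35.5, 29.8 and 33.0 CPM in dIDR3, and 25.8, 29.2 and 33.6 CPM in GFP. It rose with WT by 1.65 on the log2 scale (SE 0.12, adjusted p = 4.14e-08), 3.14-fold. HIST1H2AG, which also encodes an H2A, did not pass the test: it was at 6.61, 10.9 and 7.12 CPM in WT, 6.2, 6.18 and 7.4 CPM in Mut_IDR3, 6.24, 6.75 and 7.35 CPM in dIDR3, and 6.75, 5.52 and 6.03 CPM in GFP. The WT and GFP libraries overlapped there, and the 95% interval of the log2 fold change ran from 0.05 to 0.81 (adjusted p = 0.0552). The low H2A genes HIST1H2AE and HIST1H2AI, named for their p-values among the further members, were at most 1.05 CPM in any library and were called in no comparison. HIST1H2AE was at 1.05, 0.592 and 0.676 CPM in WT and 0.174, 0.466 and 0.37 CPM in GFP (1.19, adjusted p = 0.0877). It was at 0.482, 0.6 and 0.209 CPM in Mut_IDR3 and 0.424, 0.26 and 0.194 CPM in dIDR3. HIST1H2AI was at 0.413, 0.592 and 0.266 CPM in WT and 0.464, 0.59 and 0.763 CPM in GFP (-0.53, adjusted p = 0.421). It was at 0.45, 0.548 and 0.278 CPM in Mut_IDR3 and 0.299, 0.701 and 0.363 CPM in dIDR3.

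HIST2H2AA3 and HIST2H2AA4 are near-identical copies on chromosome 1 (149842188 to 149842736, minus strand, and 149851061 to 149851624, plus strand), whose transcripts are equal at all 549 aligned bases. Counts can be split between such copies by the counting alone, and the split was uneven in some libraries: dIDR3 replicate 1 had 11 counts for HIST2H2AA3 and 177 for HIST2H2AA4, and GFP replicate 2 had 156 and 64. HIST2H2AA4 was at 17.4, 15.8 and 14.5 CPM in WT, 2.41, 2.89 and 3.18 CPM in Mut_IDR3, 4.42, 2.75 and 2.47 CPM in dIDR3, and 3.42, 1.99 and 3.74 CPM in GFP. HIST2H2AA3 was at 17.3, 16.0 and 14.2 CPM in WT, 2.51, 3.21 and 2.9 CPM in Mut_IDR3, 0.274, 3.14 and 2.56 CPM in dIDR3, and 3.48, 4.84 and 3.7 CPM in GFP. The uneven split leaves their sum untouched. It was 34.7, 31.9 and 28.7 CPM in WT, 4.92, 6.1 and 6.08 CPM in Mut_IDR3, 4.69, 5.9 and 5.03 CPM in dIDR3, and 6.9, 6.83 and 7.44 CPM in GFP. The sum rose with WT by 2.17 on the log2 scale (adjusted p = 3.04e-09), 4.49-fold, a change that the single copies showed with 1.98 for HIST2H2AA3 and 2.38 for HIST2H2AA4. Every library of both mutants lay below the GFP libraries for the sum. It was called lower with dIDR3 (log2 fold change -0.44, adjusted p = 0.0157) and not with Mut_IDR3 (-0.31, adjusted p = 0.0938).

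The same holds for HIST2H4A and HIST2H4B, which encode H4 and are equal at all 1547 aligned bases, and for HIST2H3A and HIST2H3C, which encode H3 and are equal at all 1656. In dIDR3 replicate 1 the H4 copies had 16 and 219 counts and the H3 copies 27 and 2. Summed, the H4 copies averaged 11.2 ± 1.88 CPM in WT, 6.04 ± 0.121 CPM in Mut_IDR3, 5.3 ± 0.506 CPM in dIDR3 and 4.83 ± 1.33 CPM in GFP (SD, n = 3 each). The sum rose with WT by 1.21 on the log2 scale (adjusted p = 5.15e-05). HIST2H4B was at 6.17, 5.8 and 4.52 CPM in WT, 3.31, 3.18 and 3.06 CPM in Mut_IDR3, 5.46, 2.57 and 2.64 CPM in dIDR3, and 3.13, 1.55 and 2.22 CPM in GFP (1.25, adjusted p = 0.00215). HIST2H4A was at 6.28, 6.3 and 4.52 CPM in WT, 2.86, 2.82 and 2.88 CPM in Mut_IDR3, 0.399, 2.31 and 2.52 CPM in dIDR3, and 3.16, 2.11 and 2.33 CPM in GFP. All WT libraries of both copies lay above the GFP libraries, and dIDR3 replicate 1 stood apart with the split described above. HIST2H4A had 1.17 (adjusted p = 0.0251), a call lost when WT replicate 1 or 2 or GFP replicate 2 or 3 was left out (adjusted p 0.0627 to 0.0818). The annotated records of HIST2H4A and HIST2H3C overlap on opposite strands, as do those of HIST2H4B and HIST2H3A, so without a stated strand setting reads of the H4 and H3 copies may not be fully separated. The summed H3 copies averaged 1.01 ± 0.214 CPM in WT, 0.833 ± 0.446 CPM in Mut_IDR3, 0.652 ± 0.086 CPM in dIDR3 and 0.448 ± 0.323 CPM in GFP (SD, n = 3 each), and WT did not pass the test against GFP (1.14, adjusted p = 0.0832).

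**Figure D3:**
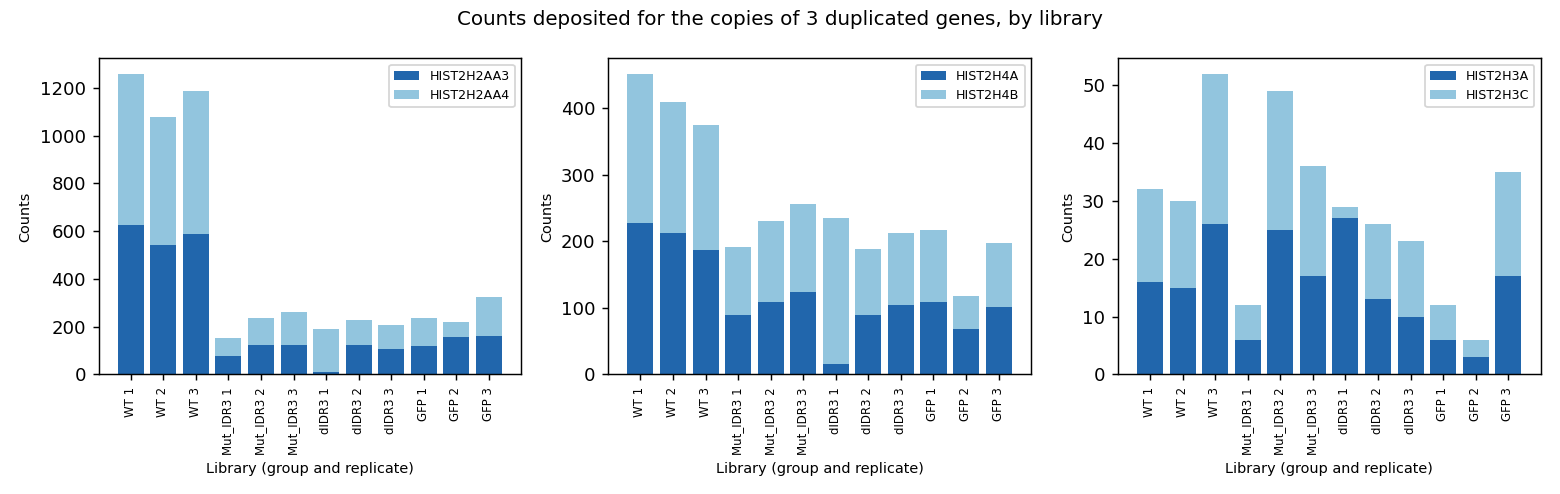
Counts (vertical axes) of the copies of each near-identical pair, stacked, in every library (horizontal axes). Most bars are split about evenly, while in dIDR3 replicate 1 the first copy has 5.85% of the H2A pair, 6.81% of the H4 pair and 93.1% of the H3 pair, and in GFP replicate 2 it has 70.9% of the H2A pair.

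The H2B genes held the most counts of any type and the highest share of rises. HIST1H2BK (ENSG00000197903, chromosome 6, 27146418 to 27146798, minus strand) alone took 29.9% of the members' counts with WT, 33.5% with Mut_IDR3, 34.1% with dIDR3 and 35.4% with GFP. It was at 153, 166 and 140 CPM in WT, 72.3, 78.1 and 68.4 CPM in Mut_IDR3, 76.1, 62.8 and 68.6 CPM in dIDR3, and 69.3, 73.0 and 74.6 CPM in GFP. Its lowest WT library held far more than the highest of the other 9, and the rise with WT was 1.08 on the log2 scale (SE 0.08, adjusted p = 4.32e-08), 2.11-fold. HIST1H2BJ (chromosome 6, 27125897 to 27132750, minus strand) was at 25.3, 24.4 and 24.2 CPM in WT, 9.93, 11 and 10.1 CPM in Mut_IDR3, 10.9, 8.08 and 9.15 CPM in dIDR3, and 8.0, 8.97 and 7.97 CPM in GFP (1.57, adjusted p = 3.65e-08). HIST1H2BD (chromosome 6, 26158146 to 26171349, plus strand) was at 17.4, 18.9 and 14 CPM in WT, 5.46, 4.93 and 6.82 CPM in Mut_IDR3, 6.59, 5.22 and 6.22 CPM in dIDR3, and 5.36, 5.25 and 5.82 CPM in GFP (1.61, adjusted p = 6e-07). For both, the WT libraries stood apart and the mutants' libraries lay in or near the GFP range.

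HIST2H2BE (chromosome 1, 149884459 to 149886652, minus strand) was at 9.28, 9.97 and 9.42 CPM in WT, 2.57, 2.22 and 2.13 CPM in Mut_IDR3, 2.97, 2.39 and 2.56 CPM in dIDR3, and 2.38, 2.79 and 2.61 CPM in GFP. Its rise with WT was 1.88 on the log2 scale (SE 0.16, adjusted p = 1.72e-07), 3.68-fold. HIST1H2BC (chromosome 6, 26114873 to 26123926, minus strand) was at 6.83, 8.46 and 5.65 CPM in WT, 1.99, 2.42 and 2.74 CPM in Mut_IDR3, 1.62, 1.53 and 2.47 CPM in dIDR3, and 2.67, 2.95 and 2.08 CPM in GFP (1.45, adjusted p = 8.92e-05). In both genes the WT libraries stood above all others. HIST1H2BN had a smaller difference, with 5.37, 4.68 and 4.13 CPM in WT, 2.41, 3.68 and 2.13 CPM in Mut_IDR3, 2.12, 2.34 and 2.01 CPM in dIDR3, and 3.13, 3.07 and 3.63 CPM in GFP. It passed the test narrowly (0.53, adjusted p = 0.0484) and did not when any of 8 libraries was left out (adjusted p 0.0518 to 0.165): WT replicate 1 or 2, or any dIDR3 or GFP library. Its annotated record also overlaps those of HIST1H2AK and HIST1H2AL, and whether the counting used strand is not given in the sources used here.

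Of the H3 genes only HIST1H3G rose, out of 6 tested. It was at 5.43, 6.99 and 4.61 CPM in WT, 3.31, 2.76 and 2.55 CPM in Mut_IDR3, 3.62, 2.31 and 2.85 CPM in dIDR3, and 1.54, 3.04 and 2.4 CPM in GFP (1.28, adjusted p = 0.000563). HIST1H3H was at 5.7, 4.71 and 4.27 CPM in WT, 3.76, 2.53 and 3.02 CPM in Mut_IDR3, 3.84, 4.03 and 3.39 CPM in dIDR3, and 4.43, 4.75 and 4.69 CPM in GFP. For HIST1H3H the WT and GFP libraries overlapped (0.08, 95% interval -0.3 to 0.46), and the lowest libraries were those of the mutants. HIST1H3B was low throughout, at 0.551, 0.326 and 0.193 CPM in WT, 0.0643, 0.0521 and 0.139 CPM in Mut_IDR3, 0.225, 0.13 and 0.0484 CPM in dIDR3, and 0.174, 0.466 and 0.37 CPM in GFP.

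Among the H4 genes, HIST1H4I (ENSG00000276180, chromosome 6, 27138588 to 27139881, plus strand) was at 33.4, 35.7 and 31.7 CPM in WT, 14.9, 16.1 and 15.9 CPM in Mut_IDR3, 16.7, 14.2 and 14.7 CPM in dIDR3, and 13.1, 14.4 and 14.5 CPM in GFP. It rose with WT by 1.26 on the log2 scale (SE 0.09, adjusted p = 2.9e-08), 2.40-fold, with all WT libraries above all others. HIST1H4E, at 0.992, 0.829 and 0.435 CPM in WT, 0.482, 0.156 and 0.487 CPM in Mut_IDR3, 0.25, 0.338 and 0.363 CPM in dIDR3, and 0.29, 0 and 0.254 CPM in GFP, was called at an adjusted p of 0.0365 with few counts. That call was lost when any of 9 libraries was left out (adjusted p 0.0522 to 0.123), which were all except WT replicate 3, Mut_IDR3 replicate 2 and GFP replicate 1. H4 genes that encode the same protein from other loci, HIST1H4H, HIST1H4J, HIST1H4K and HIST4H4, had log2 fold changes of 0.64, 0.33, 0.55 and 0.44 and did not pass the test.

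The study's question for the mutants is which expression changes go with the phase separation of TFAP2β. Set against WT, 15 of the 33 tested members fell with Mut_IDR3 and 13 with dIDR3, and 0 rose with either. These are 45.5% and 39.4% of the tested members, while 44.1% of all features were called with Mut_IDR3, 20.9% lower and 23.2% higher, and 52.3% with dIDR3, 25.0% lower and 27.2% higher. The median log2 fold changes were -0.78 with Mut_IDR3 and -1.10 with dIDR3, against 0.03 for all features in both. No member was called higher at an unadjusted p under 0.05 in either comparison, nor by DESeq2 or limma-voom. Of the 15 members that rose with WT against GFP, 13 fell with Mut_IDR3 and 13 with dIDR3, and 12 fell with both. These comparisons share the WT libraries, so the calls are not independent of each other, and the 15 were picked for being high in WT. How many of all features higher with WT also fell with each mutant was not counted.

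**Figure D4:**
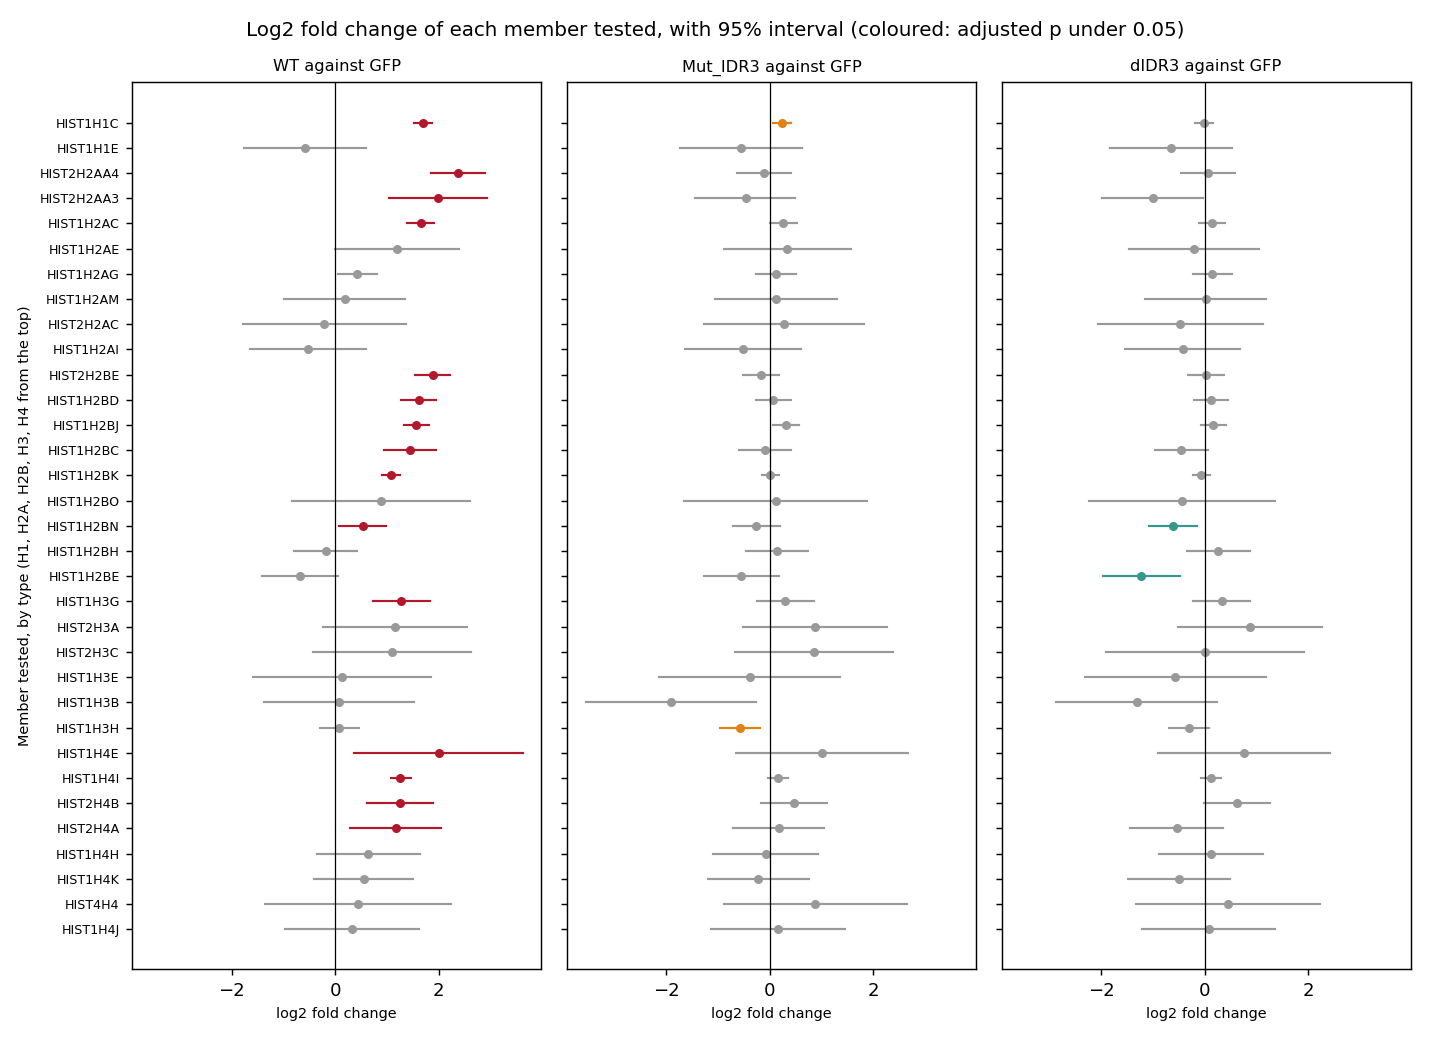
Log2 fold changes against GFP (points, horizontal axis) with 95% intervals (lines) of the 33 tested members, one in each row, for WT, Mut_IDR3 and dIDR3 from left to right. Coloured members passed the test: 15 with WT, all to the right of 0, 2 with Mut_IDR3 and 2 with dIDR3.

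HIST1H1C fell by 1.47 on the log2 scale with Mut_IDR3 (SE 0.08, adjusted p = 2.3e-09) and by 1.71 with dIDR3 (SE 0.08, adjusted p = 4e-10). HIST1H2AC fell by 1.39 with Mut_IDR3 (adjusted p = 3.9e-07) and by 1.5 with dIDR3 (adjusted p = 1.17e-07). The summed HIST2H2AA copies had -2.47 with Mut_IDR3 (adjusted p = 1.03e-09) and -2.61 with dIDR3 (adjusted p = 5.34e-10), so HIST1H1C and H2A genes of both clusters were lower with each mutant. Of the H2B genes with Mut_IDR3, HIST2H2BE fell by 2.05, HIST1H2BC by 1.54, HIST1H2BD by 1.54, HIST1H2BJ by 1.25 and HIST1H2BK by 1.07. With dIDR3, HIST2H2BE fell by 1.85, HIST1H2BC by 1.89, HIST1H2BD by 1.48, HIST1H2BJ by 1.39 and HIST1H2BK by 1.14. The adjusted p-values of these 5 genes were at most 9.28e-05. HIST1H2BN fell by 0.78 with Mut_IDR3 (adjusted p = 0.00788) and by 1.13 with dIDR3 (adjusted p = 0.000456). HIST1H3G fell by 0.98 with Mut_IDR3 (adjusted p = 0.00551) and by 0.95 with dIDR3 (adjusted p = 0.00527). HIST1H4I fell by 1.10 with Mut_IDR3 (adjusted p = 1.82e-07) and by 1.14 with dIDR3 (adjusted p = 8.3e-08). The summed HIST2H4 copies were lower by -0.89 with Mut_IDR3 (adjusted p = 0.00108) and -1.08 with dIDR3 (adjusted p = 0.000159).

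HIST1H3H, HIST1H3B, HIST2H4B and HIST2H4A passed the test in 1 of these comparisons, and whether the mutants differ there is given by the comparison between them, in which no member was called. HIST1H3H fell by 0.66 with Mut_IDR3 against WT (adjusted p = 0.00816) and had -0.38 with dIDR3 (95% interval -0.77 to 0.0, adjusted p = 0.0881). HIST1H3B had -1.99 with Mut_IDR3 (adjusted p = 0.0488) and -1.38 with dIDR3 (adjusted p = 0.127). The HIST1H3B call rested on few counts and was lost without any 1 of 10 libraries, all but WT replicate 3 and dIDR3 replicate 3 (adjusted p 0.0547 to 0.205). HIST2H4B alone had -0.79 with Mut_IDR3 (adjusted p = 0.0397), a call lost without WT replicate 1 or 2 or any Mut_IDR3 library (adjusted p 0.0749 to 0.119). HIST2H4A had -1.71 with dIDR3 (adjusted p = 0.00312), where replicate 1 had 16 counts, and -1.0 with Mut_IDR3 (adjusted p = 0.0604).

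Against GFP, few members differed in the cells with mutant TFAP2β. With Mut_IDR3, 1 of the 33 tested members was higher and 1 was lower, where 21.1% of all features were called, 11.2% higher and 9.85% lower. With dIDR3, 0 were higher and 2 were lower, where 29.0% of all features were called, 15.6% higher and 13.4% lower. At an unadjusted p under 0.05 there were 3 higher and 2 lower with Mut_IDR3, and 0 higher and 3 lower with dIDR3. DESeq2 called 0 higher with dIDR3, and so did limma-voom. The medians were 0.11 with Mut_IDR3 and 0.00 with dIDR3.

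HIST1H1C was the member called higher with Mut_IDR3, by 0.24 on the log2 scale (95% interval 0.07 to 0.41, adjusted p = 0.0453). That call was lost when any of 7 libraries was left out (adjusted p 0.057 to 0.182): WT replicate 1, any Mut_IDR3 library, dIDR3 replicate 3, or GFP replicate 1 or 3. With the trend over GC content removed, the value was 0.08 (adjusted p = 0.564). HIST1H3H was called lower with Mut_IDR3 (-0.58, adjusted p = 0.0351), and not without Mut_IDR3 replicate 2 or 3 or any GFP library (adjusted p 0.0622 to 0.15). With dIDR3, HIST1H2BE was lower, at 0.599, 1.51 and 1.21 CPM in dIDR3 and 3.36, 2.36 and 2.01 CPM in GFP (-1.22, adjusted p = 0.0168), and the call was lost without dIDR3 replicate 1 or GFP replicate 1 (adjusted p 0.0635 and 0.0789). HIST1H2BN was also lower (-0.61, adjusted p = 0.0491), and not without WT replicate 1 or 2 or any dIDR3 or GFP library (adjusted p 0.055 to 0.143).

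For the most counted members the intervals against GFP were narrow. That of HIST1H2BK ran from -0.16 to 0.18 with Mut_IDR3 and from -0.23 to 0.11 with dIDR3, on the log2 scale. HIST1H2AC had 0.26 with Mut_IDR3 (0.01 to 0.52, adjusted p = 0.134) and 0.15 with dIDR3 (-0.11 to 0.40), and HIST1H4I had 0.16 (-0.03 to 0.35) and 0.12 (-0.07 to 0.31). All 3 genes therefore had upper bounds against GFP well under their rises with WT.

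Between the mutants, 0 of the 33 members were called, where 10.8% of all features were, 5.54% higher and 5.24% lower with Mut_IDR3 than with dIDR3. At an unadjusted p under 0.05, 1 member was higher with Mut_IDR3 and 0 were lower, and DESeq2 called 1 higher while limma-voom called 0. HIST1H1C had 0.25 (95% interval 0.08 to 0.42, adjusted p = 0.0579), with 32.7, 34.6 and 35.1 CPM in Mut_IDR3 and 31.2, 26.4 and 28.7 CPM in dIDR3. HIST1H2BK had 0.08 (-0.09 to 0.25), HIST1H2AC 0.11 (-0.14 to 0.37) and HIST1H4I 0.04 (-0.15 to 0.23). A p that misses the threshold does not show that the mutants act alike, and these intervals give the differences that the data allow.

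Many H2A and H2B genes lie head to head and share the DNA between their starts. The annotation gives 11 such pairs of members within 500 bases. In 4 both genes were tested. HIST1H2BC and HIST1H2AC, 218 bases apart, both rose with WT against GFP (1.45 and 1.65). HIST2H2BE and HIST2H2AC lie 322 bases apart, and HIST2H2BE rose (1.88) while HIST2H2AC had -0.21 (adjusted p = 0.832). Likewise HIST1H2BJ rose (1.57), and HIST1H2AG, 291 bases away, had 0.43. HIST1H2BO and HIST1H2AM had 0.88 and 0.18 and neither was called. The difference between the genes of a pair was not tested.

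Several features of the genes were set beside the calls for WT against GFP, as descriptions with no test. A match to the stem-loop consensus lay in the annotated transcripts of 9 of the 15 members that rose and of 11 of the 18 other tested members. An annotated transcript reached more than 100 bases beyond the stem-loop in 6 of the 15 and in 8 of the 18. HIST1H2AC reached 14432 bases beyond it on the genome and HIST1H2BD 12747, while HIST2H2BE reached 1729 and HIST1H3G 1518. HIST1H2AG and HIST1H3H, which were not called higher (log2 fold changes 0.43 and 0.08), reached 1761 and 769. More than 1 exon was annotated for 7 of the 15 and for 4 of the 18. The records of HIST1H1C and HIST1H2BK hold the coding sequence alone, so no end beyond it could be read from them. The same is true of 5 of the 18 other tested members, so both counts above include genes whose records cannot show a stem-loop or a longer end. Longer ends were read only in records with a match to the consensus. HIST1H4I, HIST1H2BJ, HIST2H4A and HIST2H4B rose and had no match, while their longest transcripts held 1294, 950, 1547 and 1694 bases. Among the others, HIST1H1E and HIST1H3E had none either, with 754 and 2679 bases. The shares with a longer end can therefore not be compared between these sets. The median GC content of the transcripts was 47.7% for the members that rose and 59.2% for the other tested members. It was 48.8% for the 12724 tested features with a GC value. A GC trend was set by features with a GC value and a mean of at least 1 CPM, and features without a value were left uncorrected. With that trend removed, 16 members rose with WT, 14 fell with Mut_IDR3 and 13 fell with dIDR3 against WT. Under that setting 3488 of the 14792 features were higher with WT against GFP, and against WT 2956 were lower with Mut_IDR3 and 3520 with dIDR3.

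RefSeq promoter windows were found for 61 of the 71 members, among them 14 of the 15 that rose and 17 of the 18 other tested ones. On either strand, TATAAA was found in 7 of the 14 that rose, in 15 of the 17 others and in 11.5% of all 35116 promoters. CCAAT was found in 11 of the 14, in 13 of the 17 and in 34.6% of all promoters, and the octamer in 4 of the 14, in 6 of the 17 and in 1.8% of all promoters. The AP-2 motif was found in 1 of the 14, which is HIST1H1C, in 5 of the 17 and in 23.2% of all promoters. In 3 of the 9 members with the AP-2 motif it overlapped a CCAAT match. Windows of head-to-head genes overlap, so the members' windows are not separate sequences.

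The genes around histone supply were read from lists that were chosen with earlier results of these data known. Of 12 replacement and variant histones, which are mostly made outside S phase as well and from polyadenylated mRNAs, 7 were higher and 0 lower with WT against GFP (median 0.33). These are 58.3% and 0.0% of the list, beside 27.7% of all features higher and 27.1% lower. The linker histones led them. H1F0 averaged 118 ± 3.86 CPM in WT, 81.3 ± 4.65 CPM in Mut_IDR3, 66.5 ± 2.69 CPM in dIDR3 and 67.4 ± 4.06 CPM in GFP (SD, n = 3 each), with 0.81 for WT against GFP (adjusted p = 6.84e-08), -0.53 for Mut_IDR3 against WT and -0.82 for dIDR3 against WT. H1FX averaged 274 ± 17.6 CPM in WT, 177 ± 7.51 CPM in Mut_IDR3, 147 ± 12.1 CPM in dIDR3 and 157 ± 3.46 CPM in GFP (SD, n = 3 each), with 0.80, -0.63 and -0.90 in the same comparisons. H2AFY, a macroH2A, had 0.47 and H2AFX, the H2A variant phosphorylated at DNA breaks, had 0.57 for WT against GFP. Against WT, 6 of the 12 were lower and 1 higher with Mut_IDR3, and 5 were lower and 3 higher with dIDR3. Of all features, 20.9% were lower with Mut_IDR3 and 25.0% with dIDR3, while the 3 higher with dIDR3 (25.0%) lie near the 27.2% of all features.

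The genes of DNA replication and S phase had more falls than rises with WT. Of 30 tested, 16 were lower and 7 higher with WT against GFP (median -0.16), 24 were higher and 0 lower with Mut_IDR3 against WT (median 0.38), and 27 were higher and 0 lower with dIDR3 against WT (median 0.63). Against GFP, 15 were higher and 1 lower with Mut_IDR3, and 22 were higher and 1 lower with dIDR3. The share lower with WT against GFP was 53.3%, beside 27.1% of all features, and the share higher was 23.3%, beside 27.7%. Of all features, 23.2% were higher with Mut_IDR3 and 27.2% with dIDR3 against WT, and 11.2% with Mut_IDR3 and 15.6% with dIDR3 against GFP. MCM6, a subunit of the replicative helicase, averaged 82.1 ± 5.24 CPM in WT, 151 ± 6.64 CPM in Mut_IDR3, 181 ± 1.46 CPM in dIDR3 and 146 ± 4.5 CPM in GFP (SD, n = 3 each). HELLS, a chromatin remodeler, averaged 22.5 ± 2.07 CPM in WT, 57.6 ± 4.45 CPM in Mut_IDR3, 67.7 ± 5.22 CPM in dIDR3 and 57.2 ± 3.87 CPM in GFP (SD, n = 3 each). In both genes all WT libraries lay below all others. The share of cells in S phase was not measured, and its part in the histone levels was not tested.

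Histone chaperones and acetyltransferases that handle new histones showed 9 lower and 4 higher of 23 with WT against GFP (39.1% and 17.4%, beside 27.1% and 27.7% of all features). HAT1, which acetylates newly made H4, averaged 30.3 ± 2.81 CPM in WT, 61.0 ± 2.44 CPM in Mut_IDR3, 74.2 ± 5.47 CPM in dIDR3 and 71.4 ± 3.53 CPM in GFP (SD, n = 3 each; -1.24 for WT against GFP, adjusted p = 1.2e-08). Against WT, 14 of the 23 were higher and 3 lower with Mut_IDR3, and 15 were higher and 3 lower with dIDR3, so 60.9% and 65.2% were higher, beside 23.2% and 27.2% of all features. Among 13 genes of histone gene transcription, 4 were higher and 7 lower with WT against GFP. The 30.8% higher lies near the 27.7% of all features, and 53.8% were lower, beside 27.1%. They include CASP8AP2, a protein of the histone locus body, at -1.54 (adjusted p = 6.39e-05), and CCNE1, a cyclin that activates CDK2 at entry into S phase, at 1.00 (adjusted p = 5.39e-05). Against WT, CCNE1 had -0.36 with Mut_IDR3 and 0.10 with dIDR3 and was not called. CCNE2, its relative, was lower with WT against GFP (-1.09, adjusted p = 0.000145), and had 1.12 with Mut_IDR3 and 1.78 with dIDR3 against WT.

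Among 13 genes of histone pre-mRNA processing and decay, 4 were higher and 5 lower with WT against GFP, with a median of 0.04. The share of 30.8% higher lies near the 27.7% of all features, and 38.5% were lower, beside 27.1%. Against WT, 6 of the 13 were higher and 2 lower with Mut_IDR3, and 8 were higher and 1 lower with dIDR3. The shares higher were 46.2% and 61.5%, beside 23.2% and 27.2% of all features. CPSF2, a subunit shared with the machinery of cleavage and polyadenylation, averaged 38.2 ± 2.13 CPM in WT, 48.6 ± 3.2 CPM in Mut_IDR3, 58.2 ± 3.83 CPM in dIDR3 and 66.9 ± 1.72 CPM in GFP (SD, n = 3 each; -0.81 for WT against GFP, adjusted p = 3.66e-07). ERI1, an exonuclease that trims the 3′ end of histone mRNA, averaged 21.3 ± 2.79 CPM in WT, 37.0 ± 2.18 CPM in Mut_IDR3, 43.7 ± 1.59 CPM in dIDR3 and 41.0 ± 1.93 CPM in GFP (SD, n = 3 each; -0.95, adjusted p = 6.65e-07). NPAT and SLBP are named for their roles, after their values were seen. NPAT, the coactivator of clustered histone genes, had -1.25 for WT against GFP (adjusted p = 0.000261), 0.86 for Mut_IDR3 against WT and 1.11 for dIDR3 against WT. SLBP, which binds the stem-loop, had -0.11 for WT against GFP (adjusted p = 0.248), 0.33 for Mut_IDR3 against WT (adjusted p = 0.00243) and 0.44 for dIDR3 against WT (adjusted p = 0.000153).

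**Figure D5:**
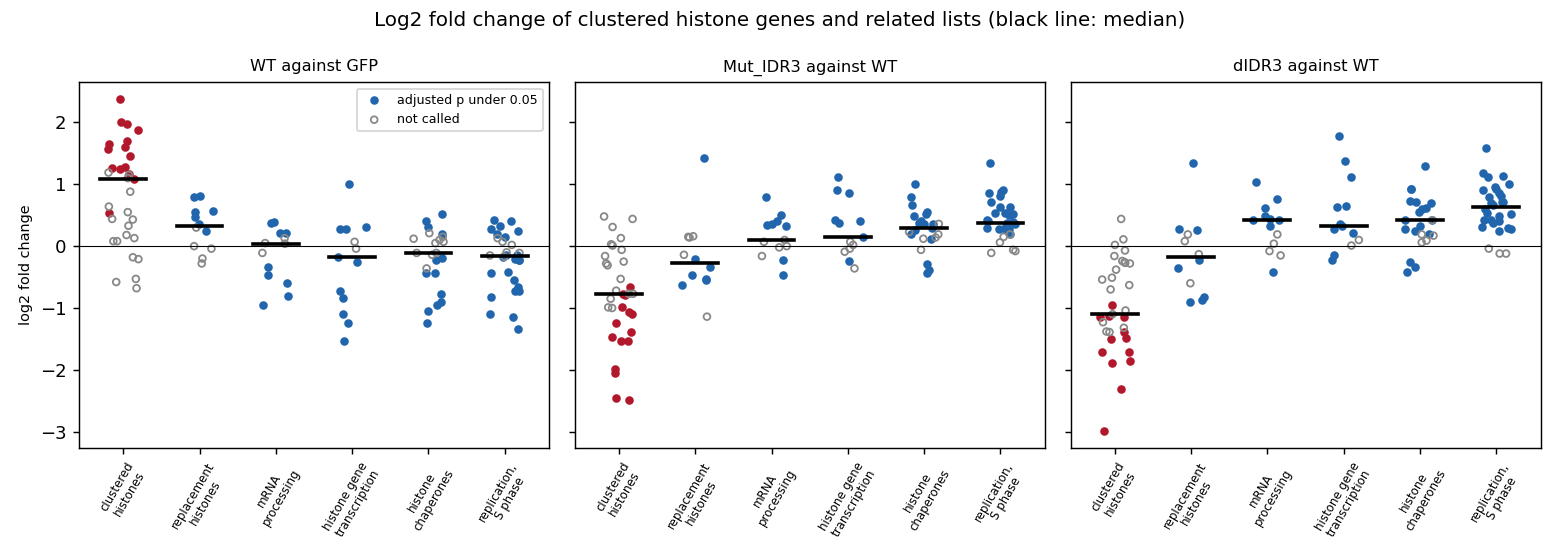
Log2 fold changes (vertical axis) of the tested members of each list (1 point for each gene, lists along the horizontal axis) for WT against GFP and for each mutant against WT, with filled points for genes that passed the test and a black line at each list's median. For WT against GFP the clustered histone genes have a median of 1.08 and the genes of DNA replication and S phase one of -0.16, and for dIDR3 against WT these medians are -1.10 and 0.63.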

How the data were processed

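The deposited table gave whole-number counts per gene for 12 libraries, 3 in each of 4 groups, and was used as the authors deposited it. The tools were Trim Galore, HISAT2 and StringTie on GRCh38/hg38, per the submitters' processing notes, without versions. The counting program, the annotation release and the strand setting are not given in the sources used here. A SMARTer mRNA kit was used on 1 µg of RNA, per the labels' protocols. Where reads of near-identical copies or overlapping genes were placed is therefore uncertain.

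Features were filtered by filterByExpr with the groups, scaled by TMM and tested in R 4.3.3 with edgeR 4.0.16 (quasi-likelihood F test over all 4 groups, 8 residual degrees of freedom). P-values were adjusted by Benjamini-Hochberg over the 14792 tested features, and called at 0.05. The smallest p of an exact test of 3 against 3 libraries is 0.1. CPM are counts over TMM-scaled library sizes. The SE is the absolute log2 fold change over the square root of F, and intervals are 95%. The code was tested on simulated counts for WT against GFP, with changes put into features drawn from all those that passed the filter. Of 1.5-fold changes 60.6% were called, of 2-fold changes 72.7% and of 4-fold changes 93.5%. Members with few counts in these libraries of 30.7 M to 43.5 M counts have less precise values.

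Alternatives were upper-quartile and median-ratio (RLE) scaling, a filter of 1 CPM or none, DESeq2 1.42.0, limma-voom (limma 3.58.1), only the 2 groups compared, the replicate number as a block, an adjusted p under 0.01, removal of a GC trend over 20 bins and single libraries left out. Plain library totals were used for summed levels only, with no test. Summing near-identical copies and removing a length trend were added after the data were seen. Same-numbered libraries of different groups did not deviate together (18 pairs, r -0.07 to 0.08), so the numbers do not pair them.

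The members and lists were chosen with earlier results of these data known. Values in every library are given for the 12 members with the highest mean CPM and up to 2 further members per type with the lowest adjusted p. Other members are named where called, and up to 4 genes per list by lowest adjusted p. Promoters are from RefSeq (GRCh38.p14), and transcripts and coordinates from GENCODE release 29.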

Additional observations from a re-analysis of the deposited data

How the results depend on the processing

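Of 47 called values of single members, 37 were called in the same direction under all alternatives in which the member was tested: 12 of 15 for WT against GFP, 12 of 15 for Mut_IDR3 against WT, 13 of 13 for dIDR3 against WT, 0 of 2 for Mut_IDR3 against GFP and 0 of 2 for dIDR3 against GFP. HIST2H2AA4 and HIST2H4B had no test of their own with near-identical copies summed. No called value changed sign. The 10 others were HIST1H2BN, HIST2H4A and HIST1H4E (WT against GFP), HIST1H3H, HIST2H4B and HIST1H3B (Mut_IDR3 against WT), HIST1H1C and HIST1H3H (Mut_IDR3 against GFP), and HIST1H2BN and HIST1H2BE (dIDR3 against GFP), and the cause was not tested. For WT against GFP, 1 member was lower without a filter and 1 with DESeq2, against 0. Of all features, 3935 were lower without a filter and 3961 with DESeq2. The counts that follow do not say which members were called. For Mut_IDR3 against GFP, the count of higher members fell to 0, against 1, without a filter, with the replicate block, at an adjusted p under 0.01 and with the length trend removed, and the count of lower members to 0, against 1, without a filter and at 0.01. With the GC trend removed the higher count was 1, but HIST1H1C was not called. Of all features, 1493 were higher without a filter, 1467 with the block, 788 at 0.01 and 1547 with the length trend removed. The features lower numbered 1523 without a filter and 561 at 0.01. For dIDR3 against GFP, the count of lower members was 1 with DESeq2, with the replicate block and with the GC trend removed, and 0 at 0.01, against 2. HIST1H2BN also lost its call there with limma-voom (adjusted p = 0.0549) and without a filter (0.063). Of all features, 2240 were lower with DESeq2, 1848 with the block, 2238 with the GC trend removed and 1049 at 0.01. For Mut_IDR3 against dIDR3, 1 member was higher with upper-quartile scaling, the 1 CPM filter, DESeq2 and only the 2 groups, against 0. In these settings 1074, 959, 1119 and 1154 of all features were higher. With single libraries left out, 12 to 16 members rose and 0 to 1 fell with WT against GFP, while 3715 to 4206 of all features rose and 3605 to 4123 fell. In the same way, 0 to 2 were higher and 0 to 1 lower with Mut_IDR3 against GFP, 0 were higher and 0 to 2 lower with dIDR3 against GFP, 13 to 15 fell with each mutant against WT, and 0 to 1 were higher with Mut_IDR3 against dIDR3. Of all features, 2641 to 3282 fell with Mut_IDR3 and 3291 to 3858 with dIDR3 against WT in those fits. The replicate block, which the libraries' numbers do not support as a pairing, gave 14 rises with WT against GFP and 14 falls with each mutant against WT. With the block, 3983 of 14792 features rose with WT, and 2935 fell with Mut_IDR3 and 3547 with dIDR3 against WT. Summing near-identical copies gave 13 rises with WT, 14 falls with Mut_IDR3 and 12 with dIDR3 against WT, with fewer features tested. Of those 14789 features, 4104 rose with WT, and 3087 fell with Mut_IDR3 and 3709 with dIDR3 against WT. With plain library totals, summed H1 in WT was 91.4 CPM, against 95.2 CPM. Of the 71 members, 38 had too few counts to be tested, and calls of members under 1 CPM rest on few counts. Whether depth or the type of library left these members low was not tested.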
